A study of Mus musculus with 2 samples.

Results

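Translation initiation and elongation factor genes were described in 2 RNA sequencing libraries of mouse acute myeloid leukaemia cells. Members were the rows typed as mRNA whose symbols begin with Eif1 to Eif6, Eef1 or Eef2, without the eIF2 gamma genes Eif2s3x and Eif2s3y, which gave 63 of the 46095 genes in the table. The rule used names only and no measured value. Both libraries came from bone marrow cells of C57BL/6 mice aged 8 weeks that had been sorted as positive for Mac1 and c-Kit, a population the labels call leukaemia-initiating. One library is labelled P2x7-KO by genotype and KD in its title, and the other is labelled wild type by genotype and Scr in its title. P2rx7 encodes P2x7, a cation channel opened by extracellular ATP. The sources used here do not give the oncogene or method that made the leukaemia, the allele or construct that targeted P2rx7, or how many mice went into each library. Each group holds 1 library, so no test between genotypes was possible, and every interval below covers counting error only.

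The library labelled P2x7-KO held 12435916 counts and the library labelled wild type 12456212. P2rx7 had 543 counts in the library labelled P2x7-KO and 229 in the library labelled wild type, a 2.27-fold higher level (95% counting interval 1.94 to 2.66). Its log2 ratio of 1.18 was 0.85 when adjusted for transcript length and GC content, and 1.37 when adjusted with another transcript. A lower level of the targeted gene was thus not seen, and counts per gene do not show whether the allele was disrupted. Each library is therefore called here by what its label says. Both sort genes were detected: Kit stood at 67.6 CPM (a count scaled to library size by TMM) in the library labelled P2x7-KO, against 45.95 CPM in the library labelled wild type. Itgam, which encodes the Mac1 alpha chain, stood at 543 and 187 CPM in the same order. Of 10 monocyte and macrophage markers, 7 were at least 2-fold higher (10.8% of all genes) and 0 lower (8.95% of all genes) in the library labelled P2x7-KO. Their summed level was 5294 CPM there and 2465 CPM in the library labelled wild type. Against that direction, Cd68, at a ratio of 0.817, and Ly6c2, at 0.965, had intervals below equality. Adjusted for length and GC, their log2 ratios were 0.08 (0.001 to 0.15) and 0.44 (0.41 to 0.48). On that scale 0 of the 10 markers lay below 0. Mast cell and basophil markers summed to 112 CPM in the library labelled P2x7-KO and 521 CPM in the library labelled wild type, with Fcer1a at 0 counts in both. Erythroid markers summed to 10.52 and 1.32 CPM in that order, neutrophil markers to 2779 and 3342 CPM, and granulocyte progenitor markers to 4332 and 4763 CPM. Among 2 compared megakaryocyte markers Vwf was 3.38-fold higher and Itga2b 4.34-fold lower, with Pf4 at 0 counts in both libraries. Dendritic cell markers summed to 399 and 377 CPM in that order, with Cd74 and Siglech at least 2-fold higher and H2-Aa at 0 counts in both. The T and NK cell markers summed to 12.49 and 35.5 CPM and the B lymphoid ones to 99.2 and 132 CPM in that order. Within these sums members went both ways. Of 4 compared B lymphoid markers, Igkc and Jchain were at least 2-fold higher and Ighm at least 2-fold lower. By the same measure, Ccl5 was higher and 2 were lower among 3 T and NK cell markers. Among 7 neutrophil markers Mmp8 was higher and S100a8 lower. The S100a8 log2 ratio of -1.34 was -0.73 when adjusted for length and GC, and so under 2-fold. The median log2 ratio of the neutrophil markers, -0.41, was 0.20 when so adjusted. That of the 4 granulocyte progenitor markers, -0.01, was 0.37. In bulk RNA, a different mix of cells and a different amount of RNA per cell cannot be told apart, and the part of these marker differences in the results below was not tested.

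Initiation factors bring the initiator tRNA, the small ribosomal subunit and the mRNA cap together. eIF2 carries the initiator tRNA, eIF3 binds the small subunit, the eIF4F complex (the cap-binding protein eIF4E, the scaffold eIF4G and the helicase eIF4A) loads the mRNA, and eIF5 and eIF5B complete subunit joining. During elongation eEF1A delivers aminoacyl-tRNA, the eEF1B subunits recharge eEF1A with GTP, and eEF2 moves the ribosome along the mRNA. Stress kinases act on eIF2 and the eIF4E-binding proteins act on eIF4E, and both slow initiation.

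Most of these genes were slightly lower in the library labelled P2x7-KO, and few were far apart. Of the 63 members, 61 had at least 20 counts over both libraries and were compared, and Eef1a2 and Eif4e1b had 0 counts in both. Only 1 member was at least 2-fold higher with a counting interval above equality, while 10.8% of all 13363 genes compared were, and 2 were at least 2-fold lower, while 8.95% of all genes were. Together 3 members, or 4.92%, passed in either direction, against 19.8% of all genes. At a 1.5-fold threshold 3 members were higher (21.1% of all genes) and 15 were lower (18.9% of all genes). The direction was less even than that of the whole table: 44 of the 61 members, or 72.1%, had a log2 ratio below 0, against 49.8% of all genes. The interval lay below equality for 41 members (34.7% of all genes) and above it for 13 (35.6% of all genes). These last shares depend on depth, since a gene with many counts has a narrow interval. The median log2 ratio of the members, the library labelled P2x7-KO over the library labelled wild type, was -0.37, with a range of -1.08 to 1.79, beside a median of 0.00 over all genes compared and 0.00 over the 7587 genes with at least 500 counts. Together the members took 2.99% of counts in the library labelled P2x7-KO (2.98 to 2.9996, Clopper-Pearson) and 3.20% in the library labelled wild type (3.19 to 3.21).

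**Figure D1:**
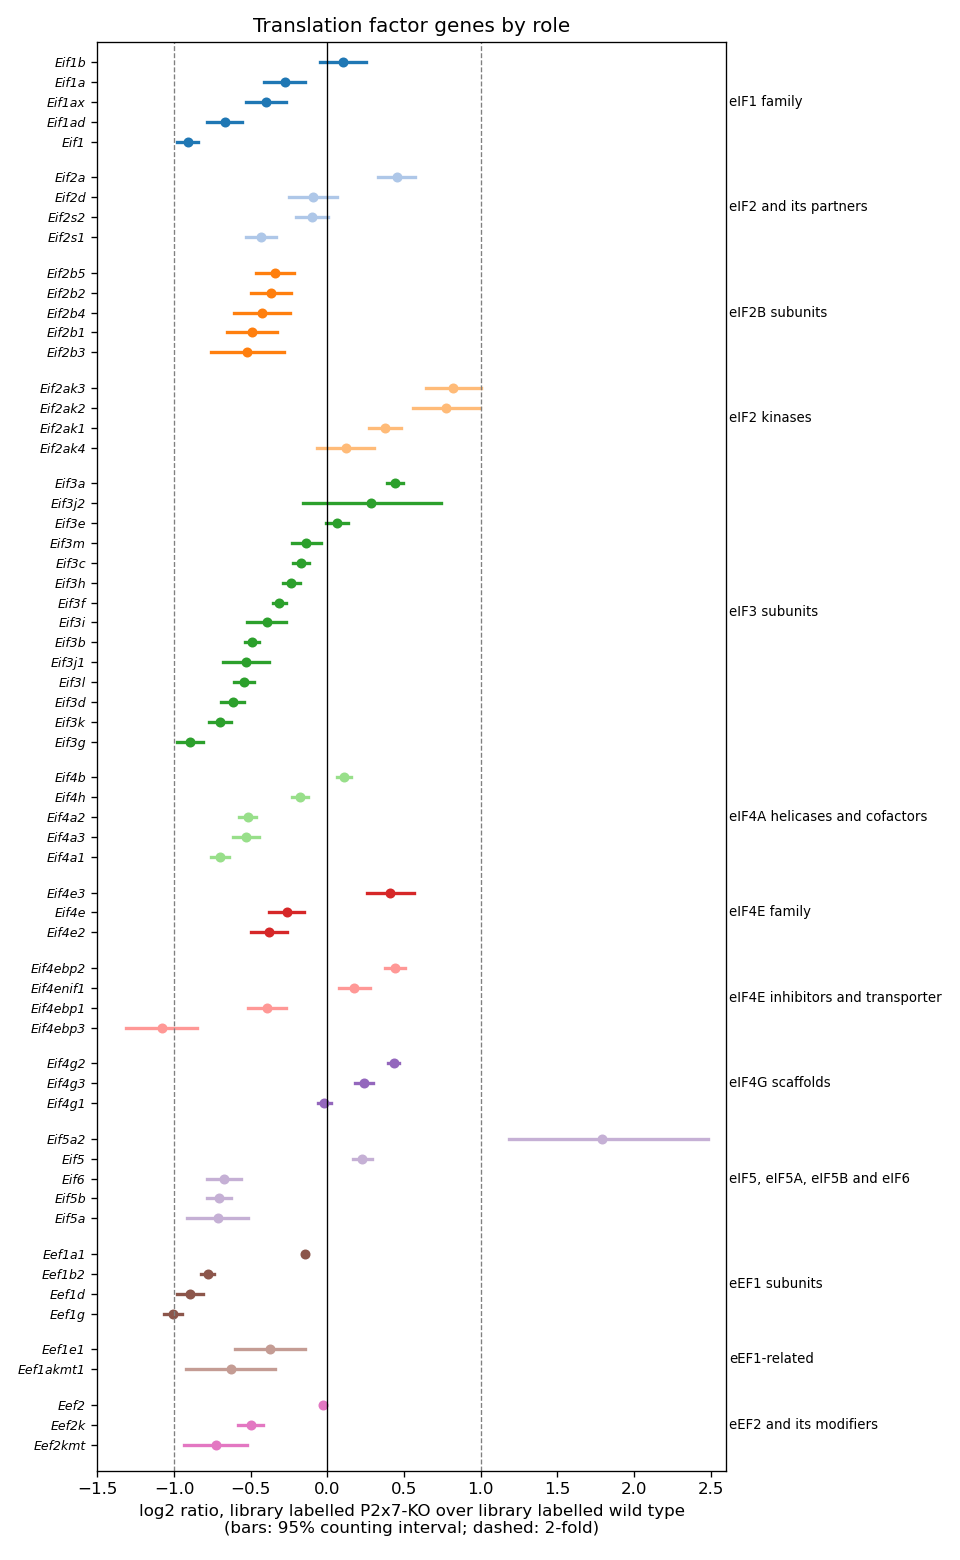
Log2 ratio of each of the 61 members compared, the library labelled P2x7-KO over the library labelled wild type, with its 95% counting interval, grouped by role; dashed lines mark 2-fold. Eif5a2 lies beyond the upper line, Eif4ebp3 and Eef1g beyond the lower, and 44 of 61 points lie below 0.

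The 200 bases before the annotated start of 4 members show the promoters at both ends of the range of log2 ratios. They are the 2 highest and the 2 lowest compared members with a RefSeq promoter window used here (build GRCm38.p6), and were picked after their values were seen. The windows of Eif4ebp3 and Eef1g are not used here. Capitals mark matches, on either strand, to the E-box CACGTG bound by MYC family proteins, the ETS site CCGGAAG and the CCAAT box CCAAT. Eif5a2 and Eif2ak3 were the highest, and Eif1 and Eif3g the lowest. The windows are chr3:28781077-28781276, chr6:70844315-70844514 and chr11:100319749-100319948 on the plus strand, and chr9:20898591-20898790 on the minus strand.
Eif5a2: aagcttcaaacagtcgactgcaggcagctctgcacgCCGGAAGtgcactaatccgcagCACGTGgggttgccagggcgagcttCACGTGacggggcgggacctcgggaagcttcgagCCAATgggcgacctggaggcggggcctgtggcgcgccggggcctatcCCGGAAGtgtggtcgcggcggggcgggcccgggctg
Eif2ak3: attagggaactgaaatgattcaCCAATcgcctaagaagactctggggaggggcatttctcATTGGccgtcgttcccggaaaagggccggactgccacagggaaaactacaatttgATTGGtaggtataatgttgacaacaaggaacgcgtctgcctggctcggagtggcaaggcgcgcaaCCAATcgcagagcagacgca
Eif1: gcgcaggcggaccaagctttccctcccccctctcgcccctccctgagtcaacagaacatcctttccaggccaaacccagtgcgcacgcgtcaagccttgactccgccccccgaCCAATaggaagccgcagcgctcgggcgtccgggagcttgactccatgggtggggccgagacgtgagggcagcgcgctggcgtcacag
Eif3g: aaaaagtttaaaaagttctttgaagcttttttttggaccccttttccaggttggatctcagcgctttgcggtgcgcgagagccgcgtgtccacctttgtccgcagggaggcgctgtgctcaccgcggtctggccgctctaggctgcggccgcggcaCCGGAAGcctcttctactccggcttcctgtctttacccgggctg
Within the 250 bases before the start, the E-box was found in 9 of the 47 members with a window (19.1%), in 8.59% of all compared genes with a window and in 6.05% of all windows. Of the 4 sequences printed, the Eif5a2 one holds all 3 motifs, the Eif2ak3 and Eif1 ones hold only CCAAT boxes and the Eif3g one holds only the ETS site. The ETS site was found in 10 of 47 members (21.3%) and 14.6% of compared genes with a window (7.05% of all windows), and the CCAAT box in 13 (27.7%) and 36.9% (34.5% of all windows). The amino acid response element TGATGNAAN was found in 0 of 47 members and 1.959% of compared genes with a window (3.51% of all windows). A match is only a match of letters, and binding was not measured.

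Elongation factors split between a level core and a lower exchange complex. Eef1a1, which encodes the tRNA-delivering GTPase, was the most abundant member by far, with 152575 counts in the library labelled P2x7-KO and 161328 in the library labelled wild type. Per kilobase of transcript this was 6679 and 7392 CPM in that order, a level 1.107-fold lower (1.099 to 1.115). Eef2, the translocase gene, had 62985 counts in the library labelled P2x7-KO and 61328 in the library labelled wild type, a log2 ratio of -0.03 that turned to 0.04 with total count scaling and 0.01 with DESeq2 size factors. The 3 genes of the eEF1B exchange factor lay further down. Eef1b2, its alpha subunit gene, stood at 593 CPM in the library labelled P2x7-KO and 1019 CPM in the library labelled wild type, 1.72-fold lower (1.67 to 1.77). Eef1d, the delta subunit gene, stood at 137 CPM in the library labelled P2x7-KO and 255 CPM in the library labelled wild type, 1.86-fold lower (1.75 to 1.97). Eef1g, the gamma subunit gene on chromosome 19 from 8967041 to 8978479 (mm10, GENCODE M21), stood at 277 and 556 CPM in that order, 2.01-fold lower (1.93 to 2.09). It passed the 2-fold rule narrowly and came under it with total count and DESeq2 scaling.

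A count ratio within a library needs no scaling between libraries, but it is not adjusted for transcript length or GC content. Set against Eef1a1, and for the library labelled P2x7-KO, Eef1g was 1.82-fold lower (1.74 to 1.89), Eef1d 1.68-fold lower (1.58 to 1.78) and Eef1b2 1.55-fold lower (1.51 to 1.60), so the exchange subunits were lower relative to the factor they recharge. Counts of Eef1a1 depend on how reads that also match its processed pseudogenes were treated. All 9 elongation-side members compared had intervals below equality (34.7% of all genes), although that of Eef2 turned as above. Their median log2 ratio was -0.63, beside -0.30 for the 52 initiation-side members. Eef2k, the kinase gene whose product inhibits eEF2, stood at 158 CPM in the library labelled P2x7-KO and 224 CPM in the library labelled wild type, 1.41-fold lower (1.34 to 1.4997). Relative to Eef2 it was 1.39-fold lower (1.31 to 1.47). Eef2kmt, the eEF2 lysine methyltransferase gene, was 1.66-fold lower (1.44 to 1.91), and Eef1akmt1, which encodes an eEF1A lysine methyltransferase, was 1.55-fold lower (1.27 to 1.90). The log2 ratio of Eef1akmt1, -0.63, was -0.14 (-0.43 to 0.15) when adjusted for length and GC, an interval that includes 0. Eef1e1, which encodes a scaffold protein of the aminoacyl-tRNA synthetase complex, was 1.29-fold lower (1.105 to 1.52).

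The eIF2 genes and their regulators went in different directions. All 4 eIF2 kinase genes had log2 ratios above 0, with a median of 0.58, and 3 had intervals above equality (35.6% of all genes). However, Eif2ak4 changed sides when length and GC were adjusted for. Eif2ak3, the gene of the endoplasmic reticulum stress kinase PERK (chromosome 6, 70844515 to 70905245), had 739 counts in the library labelled P2x7-KO and 399 in the library labelled wild type, 1.77-fold higher (1.56 to 2.003). Eif2ak2, the gene of the double-stranded RNA-activated kinase PKR, had 484 counts in the library labelled P2x7-KO and 270 in the library labelled wild type, 1.71-fold higher (1.47 to 1.99). Eif2ak1, the gene of the haem-regulated kinase HRI, was 1.297-fold higher (1.205 to 1.40) at 132 CPM in the library labelled P2x7-KO and 102 CPM in the library labelled wild type. Eif2ak4, the gene of the amino acid-sensing kinase GCN2, stood at 40.4 CPM in the library labelled P2x7-KO and 37.2 CPM in the library labelled wild type, with an interval that included equality (0.96 to 1.23). None of the 4 reached 2-fold (19.8% of all genes).

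The alpha and beta subunit genes of their substrate and the genes of its exchange factor were level or lower. The 2 gamma subunit genes, left out of the family, went the other way, with log2 ratios of 0.28 and 0.46 and intervals above equality. Their median log2 ratio of 0.37 was 0.10 when adjusted for length and GC. Eif2s1, which encodes the eIF2 alpha subunit that these kinases phosphorylate, stood at 117 CPM in the library labelled P2x7-KO and 158 CPM in the library labelled wild type, 1.35-fold lower (1.26 to 1.45). Eif2s2, the beta subunit gene, stood at 119 and 128 CPM in that order, with an interval for the ratio of 0.8695 to 1.003 that just included equality. The 5 eIF2B genes encode the exchange factor that reloads eIF2 with GTP. All 5 had intervals below equality (34.7% of all genes) and spanned a narrow range. Eif2b3, the gamma subunit gene, was the lowest, at 20.03 CPM in the library labelled P2x7-KO and 28.8 CPM in the library labelled wild type, 1.44-fold lower (1.22 to 1.695). Eif2b5, which encodes the catalytic epsilon subunit, was the nearest to equality, at 77.2 CPM in the library labelled P2x7-KO and 97.9 CPM in the library labelled wild type, 1.27-fold lower (1.16 to 1.38). For the 5 together the median log2 ratio was -0.43, and all 5 stayed below 0 once transcript length and GC content were adjusted for, although the adjusted intervals of Eif2b2 (-0.18 to 0.09) and Eif2b4 (-0.30 to 0.07) included 0. Eif2a, which encodes an alternative initiator tRNA-binding protein unrelated to the eIF2 alpha subunit, was 1.37-fold higher (1.26 to 1.49), at 105 CPM in the library labelled P2x7-KO and 76.8 CPM in the library labelled wild type. Serp1 overlaps only the start of Eif2a on the opposite strand (chromosome 3, 58525821 to 58525892 in GENCODE M21). Without a stated strand setting, reads from that stretch cannot be told apart. Eif2d, whose product also binds initiator tRNA, stood at 52.4 and 55.8 CPM in that order, with an interval that included equality.

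The phosphatase subunit genes that oppose the kinases were further apart than any kinase. Ppp1r15a, which encodes the stress-induced GADD34 subunit that directs protein phosphatase 1 to eIF2 alpha, had 592 counts in the library labelled P2x7-KO and 2313 in the library labelled wild type, 4.09-fold lower (3.74 to 4.48). Ppp1r15b, its constitutive counterpart, had 2660 counts in the library labelled P2x7-KO and 1152 in the library labelled wild type, 2.21-fold higher (2.06 to 2.37), with a log2 ratio of 1.14 that was 0.71 when adjusted for length and GC. The ratio of Ppp1r15b to Ppp1r15a counts was 4.49 in the library labelled P2x7-KO and 0.498 in the library labelled wild type, a 9.02-fold change (8.04 to 10.1). That change is not adjusted for length, and the transcripts taken have 5594 bases for Ppp1r15b and 2333 for Ppp1r15a. Of the 5 genes listed as phosphatase subunits and effectors, 3 were at least 2-fold lower (8.95% of all genes) and 1 higher (10.8% of all genes). Adjusted for length and GC, Ppp1r15a at -1.78 was the only one of the 5 still past 2-fold. Atf4, whose mRNA is translated preferentially when eIF2 alpha is phosphorylated, stood at 266 CPM in the library labelled P2x7-KO and 539.8 CPM in the library labelled wild type. Its log2 ratio of -1.02 came under 2-fold with total count scaling (-0.95), DESeq2 size factors (-0.99) and adjustment for length and GC (-0.76). Its target Ddit3 stood at 9.82 and 27.5 CPM in that order, and its log2 ratio of -1.48 was -0.91 when so adjusted.

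**Figure D2:**
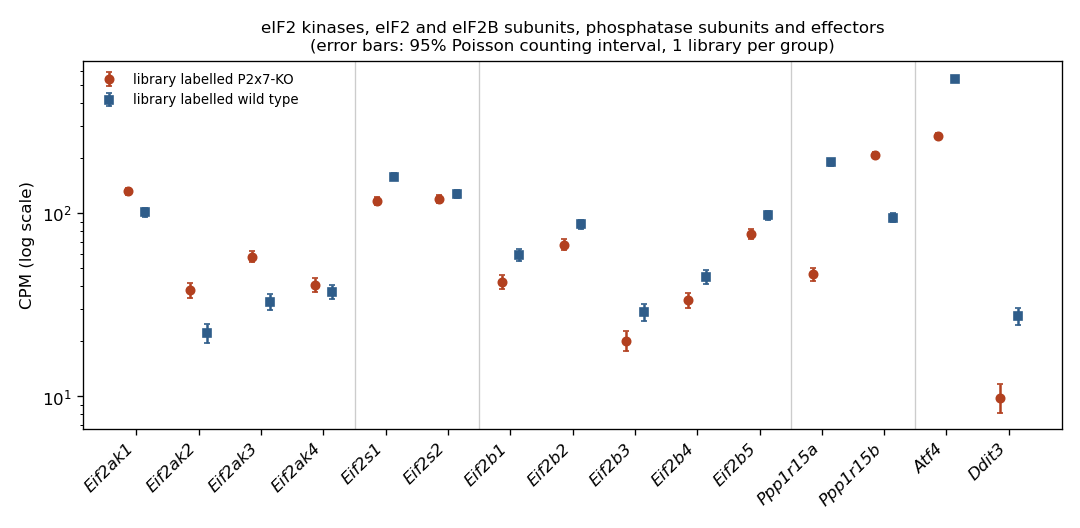
CPM on a log axis in the library labelled P2x7-KO (circles) and the library labelled wild type (squares) for the eIF2 kinases, eIF2 and eIF2B subunits, phosphatase subunits and effectors, with 95% Poisson counting intervals. Among the 4 kinases, Eif2ak4 has overlapping intervals and the others are higher in the library labelled P2x7-KO; the 5 eIF2B subunits are lower, and Ppp1r15a and Ppp1r15b go in opposite directions.

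Of the 14 eIF3 subunit genes, 11 had intervals below equality (34.7% of all genes), 1 above (35.6% of all genes) and 2 around it. The number past 2-fold was 0 (19.8% of all genes). The median log2 ratio was -0.35. Eif3g, which encodes an RNA-binding subunit, was the lowest, with 1780 counts in the library labelled P2x7-KO and 3162 in the library labelled wild type, 1.86-fold lower (1.75 to 1.97). The log2 ratio of Eif3g, -0.89, was -0.40 (-0.49 to -0.32) when adjusted for length and GC. Eif3k, a small subunit gene, had the highest level per kilobase in the library labelled wild type, at 253 CPM per kilobase in the library labelled P2x7-KO and 412 in the library labelled wild type. In the library labelled P2x7-KO Eif3h led instead, at 319 CPM per kilobase, against 375 in the library labelled wild type. Eif3a, the gene of the largest subunit, was the exception, with 7582 counts in the library labelled P2x7-KO and 5333 in the library labelled wild type, 1.36-fold higher (1.31 to 1.41). Its log2 ratio of 0.44 was -0.09 when adjusted for length and GC, and its transcript of 5125 bases is among the longest of the complex. Eif3e, at 264 CPM in the library labelled P2x7-KO and 253 CPM in the library labelled wild type, together with Eif3j2, at 97 and 76 counts in that order, were the members whose intervals included equality. The remaining subunit genes were between 1.101-fold lower (Eif3m) and 1.63-fold lower (Eif3k). On the scale adjusted for length and GC, 11 of the 14 again lay below 0, but not the same ones, since Eif3h and Eif3i moved above 0 and Eif3a and Eif3e below it. On that scale 2 ratios moved by over 1.5 times, that of Eif3k (-0.70) to -0.10 and that of Eif3j1 (-0.53) to -1.15.

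The 8 subunits that form the octamer of PCI and MPN domain proteins (a, c, e, f, h, k, l and m) had a median log2 ratio of -0.20, and the other 6 genes (b, d, g, i, j1 and j2) one of -0.51. Summed CPM of the octamer genes was 3019 in the library labelled P2x7-KO and 3407 in the library labelled wild type, 1.13-fold lower. Among the other 6 the sums were 946 CPM in the library labelled P2x7-KO and 1411 CPM in the library labelled wild type, 1.49-fold lower. Whether the 2 sets differ cannot be tested with 1 library a group. Eif3j1 and Eif3j2 are near-identical copies, so the split of reads between them is uncertain.

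**Figure D3:**
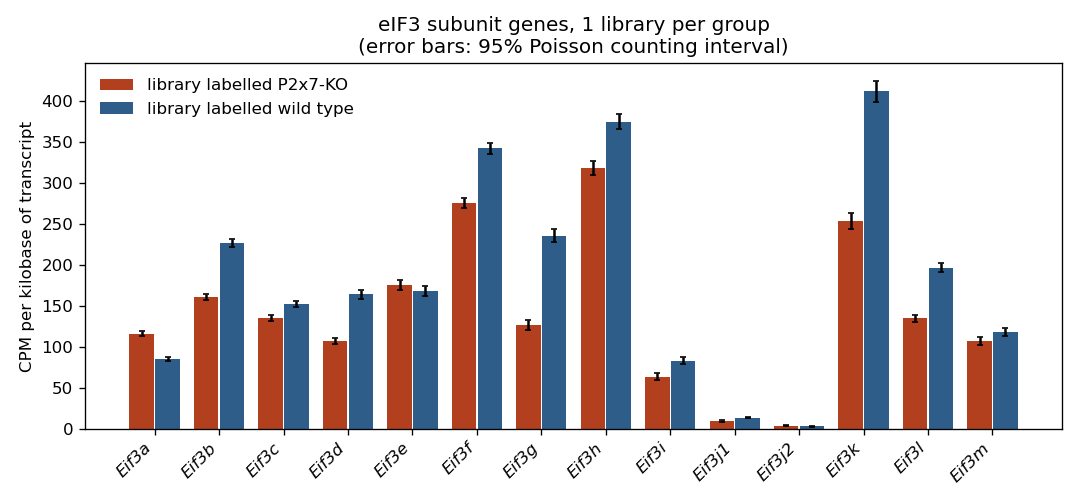
CPM per kilobase of transcript for the 14 eIF3 subunit genes in the library labelled P2x7-KO (left bar) and the library labelled wild type (right bar), with 95% Poisson counting intervals. Eif3a is higher in the library labelled P2x7-KO, and Eif3g and Eif3k show the widest gaps the other way.

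In the eIF4F complex the helicase genes were lower and the scaffold genes level or higher, although the scaffold median of 0.24 was -0.14 when adjusted for length and GC. Eif4a1, the main helicase gene, had 4077 counts in the library labelled P2x7-KO and 6331 in the library labelled wild type, 1.63-fold lower (1.56 to 1.69). Eif4a2, its close paralog, had 4115 counts in the library labelled P2x7-KO and 5641 in the library labelled wild type, 1.44-fold lower (1.38 to 1.49), and Eif4a3, which encodes a core protein of the exon junction complex, was also 1.44-fold lower (1.37 to 1.53). The helicase cofactor genes were closer to equality: Eif4b stood at 623 CPM in the library labelled P2x7-KO and 578 CPM in the library labelled wild type, 1.08-fold higher (1.04 to 1.11), with a log2 ratio of 0.11 that was -0.09 when adjusted for length and GC. Eif4h was 1.13-fold lower (1.09 to 1.17), with a log2 ratio of -0.18 that was -0.02 (-0.07 to 0.03) when so adjusted. Eif4g1, the main scaffold gene, stood at 666 CPM in the library labelled P2x7-KO and 676 CPM in the library labelled wild type, with an interval for the ratio of 0.96 to 1.02. Eif4g2, whose product DAP5 lacks the eIF4E-binding region, stood at 1218 CPM in the library labelled P2x7-KO and 902 CPM in the library labelled wild type, 1.35-fold higher (1.32 to 1.38). Eif4g3 was 1.18-fold higher (1.13 to 1.23), with a log2 ratio of 0.24 that was -0.14 when adjusted for length and GC. Both Eif4a1 and Eif4a2 hold small nucleolar RNA genes in their introns, as 9 of the members do.

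The cap-binding proteins and their inhibitors showed opposite members within each family. Eif4e, the cap-binding protein gene, stood at 94.1 CPM in the library labelled P2x7-KO and 113 CPM in the library labelled wild type, 1.20-fold lower (1.11 to 1.30), and the repressive homologue gene Eif4e2 stood at 84.2 and 109.6 CPM in that order, 1.302-fold lower (1.20 to 1.41). The log2 ratio of Eif4e, -0.27, depends on the transcript taken for its length. It was -0.90 when adjusted for length and GC with a transcript of 4991 bases and 0.02 with one of 856 bases. Eif4e3, the remaining homologue detected, stood at 66.6 CPM in the library labelled P2x7-KO and 50.1 CPM in the library labelled wild type, 1.33-fold higher (1.197 to 1.48). The annotation places another coding gene over Eif4e3 on the same strand, so its value is uncertain. Among the eIF4E-binding proteins, which hold eIF4E away from the scaffold until phosphorylated by mTOR, Eif4ebp2 was the most abundant per kilobase. It had 4825 counts in the library labelled P2x7-KO and 3398 in the library labelled wild type, 1.36-fold higher (1.30 to 1.42). Eif4ebp1 had 963 counts in the library labelled P2x7-KO and 1209 in the library labelled wild type, 1.31-fold lower (1.21 to 1.43). Eif4ebp3, on chromosome 18 from 36664060 to 36665917, had 231 counts in the library labelled P2x7-KO and 467 in the library labelled wild type, 2.12-fold lower (1.80 to 2.49). Its value is uncertain, since the annotation places another coding gene over it on the same strand, and its log2 ratio of -1.08 was -0.47 when adjusted for length and GC. Eif4enif1, which encodes the eIF4E transporter, was 1.13-fold higher (1.05 to 1.21), with a log2 ratio of 0.17 that was -0.01 when adjusted. The ratio of Eif4ebp2 to Eif4ebp1 counts was 5.01 in the library labelled P2x7-KO and 2.81 in the library labelled wild type, a 1.78-fold change (1.62 to 1.963).

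The eIF5A genes held the member furthest from equality. eIF5A, once named an initiation factor, helps ribosomes elongate through stalling sequences. Eif5a2, on chromosome 3 from 28781276 to 28798846, had 99 counts in the library labelled P2x7-KO and 27 in the library labelled wild type, or 7.77 and 2.22 CPM in that order, 3.503-fold higher (2.27 to 5.58). Its log2 ratio of 1.79 was 1.11 (0.50 to 1.80) when adjusted for length and GC and so kept above 2-fold. Eif5a, which encodes the widely expressed form of this hypusine-carrying factor, had 336 counts in the library labelled P2x7-KO and 527 in the library labelled wild type, 1.64-fold lower (1.43 to 1.89). A pseudogene row of the same name pattern, Eif5al3-ps, had 7 counts in each library. How reads with several matches were treated is not given, so the Eif5a counts are uncertain. The ratio of Eif5a2 to Eif5a counts was 0.295 in the library labelled P2x7-KO and 0.0512 in the library labelled wild type, a 5.75-fold change (3.63 to 9.35). That change is not adjusted for length, and the transcripts taken have 5027 bases for Eif5a2 and 1437 for Eif5a. Adjusted for length and GC, the log2 ratio was 1.11 for Eif5a2 and -0.35 (-0.56 to -0.15) for Eif5a, against -0.71 without adjustment for Eif5a. Per kilobase of transcript Eif5a2 remained the rarer form in both libraries, at 0.0842 of Eif5a in the library labelled P2x7-KO and 0.0146 in the library labelled wild type.

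The scanning factor gene Eif1 had 2808 counts in the library labelled P2x7-KO and 5048 in the library labelled wild type, 1.88-fold lower (1.80 to 1.97). Its paralog Eif1b had 777 counts in the library labelled P2x7-KO and 691 in the library labelled wild type, with an interval that included equality (0.97 to 1.19). The ratio of Eif1b to Eif1 was thus 2.02-fold higher in the library labelled P2x7-KO (1.80 to 2.27). Eif1ad, a homologue of the eIF1A genes, was 1.59-fold lower (1.47 to 1.72), and Eif1a and Eif1ax were 1.21-fold and 1.32-fold lower. The log2 ratio of Eif1ax, -0.40, was -1.07 when adjusted for length and GC. Eif5b, which encodes the subunit-joining GTPase, stood at 175 CPM in the library labelled P2x7-KO and 286 CPM in the library labelled wild type, 1.63-fold lower (1.55 to 1.72). Its transcript of 7797 bases is the longest of the family, and its log2 ratio of -0.71 was -1.46 (-1.53 to -1.38) when adjusted in the same way. Rev1 overlaps the end of Eif5b on the opposite strand, and without a stated strand setting reads from that stretch cannot be told apart. Eif6, which encodes an anti-association factor of the large subunit, was 1.59-fold lower (1.48 to 1.72). The log2 ratio of Eif6, -0.67, was -0.22 (-0.33 to -0.11) when adjusted for length and GC. Eif5, the GTPase-activating factor gene, stood at 352 CPM in the library labelled P2x7-KO and 300.1 CPM in the library labelled wild type, 1.17-fold higher (1.12 to 1.22), and its log2 ratio of 0.23 was -0.26 on the adjusted scale.

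**Figure D4:**
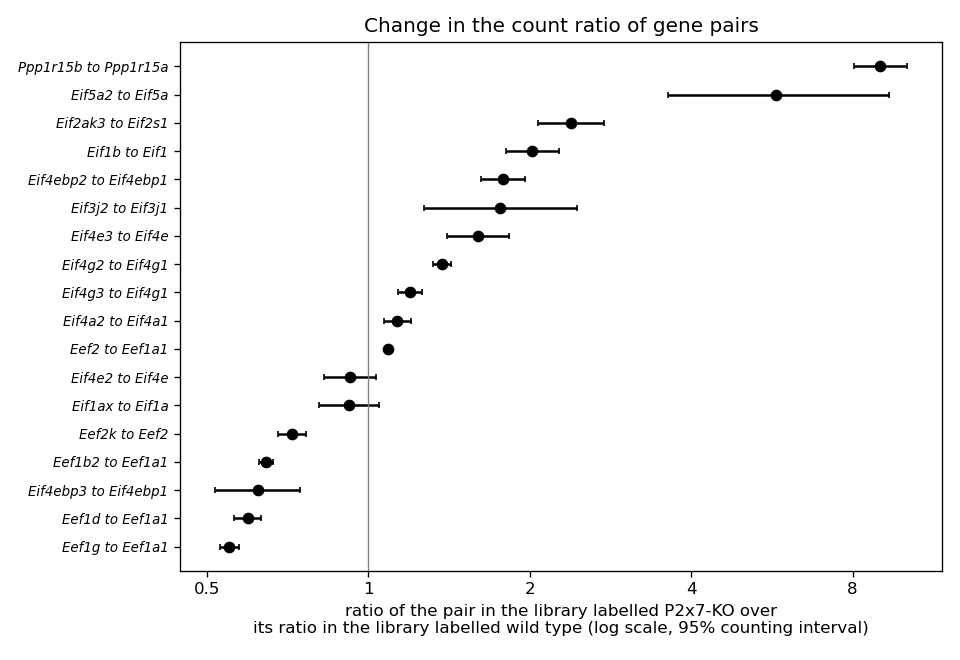
Change in the count ratio of each gene pair, its value in the library labelled P2x7-KO over its value in the library labelled wild type, on a log axis with 95% counting intervals. The largest changes are 9.02-fold for Ppp1r15b to Ppp1r15a and 5.75-fold for Eif5a2 to Eif5a, while the 3 eEF1B subunits lie between 0.5505 and 0.644 relative to Eef1a1. The changes are not adjusted for transcript length or GC content.

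Transcript length moved with the ratio across the whole table. Spearman's rho between length and log2 ratio was 0.44 over the 61 members and 0.45 over the 12374 compared genes with a length. Genes of the same libraries are not independent, so this is a description. Genes were cut by length into 3 bins of like size. In the shortest bin (up to 1946 bases) the median log2 ratio was -0.55 for 23 members and -0.41 for all genes. For the middle bin the medians were -0.33 for 22 members and -0.00 for all genes. In the longest bin (over 3571 bases) they were 0.15 for 16 members and 0.39 for all genes, so the members lay below all genes in each bin. GC content had a rho of -0.32 over the members and -0.35 over all genes. With length and GC adjusted for together, the members' median was -0.25, with 47 of 61 below 0, beside a median of -0.02 over all genes. Of the 44 members below 0 without adjustment 40 stayed below, and of the 17 above 0, 10 stayed above. The Eif2ak3 log2 ratio of 0.82 came to 0.58 (0.40 to 0.76), that of Eif2ak2 went down to 0.31 (0.10 to 0.54), and that of Eif2ak1 to 0.09 (-0.02 to 0.19), an interval that includes equality. That of Eif2ak4 turned to -0.21 (-0.40 to -0.03).

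**Figure D5:**
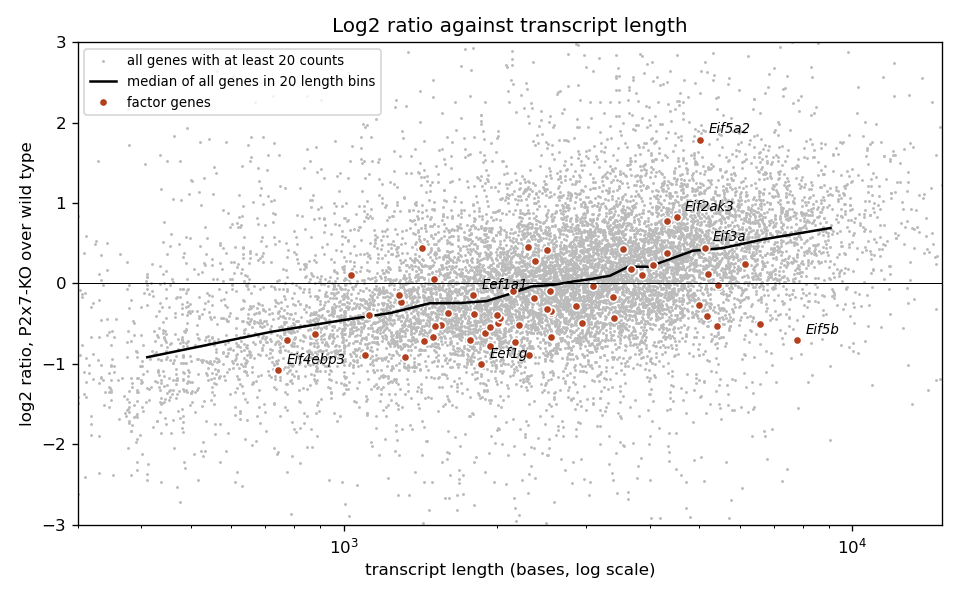
Log2 ratio, the library labelled P2x7-KO over the library labelled wild type, against transcript length on a log axis for all compared genes (grey), their median in 20 length bins (line) and the factor genes (large points). The line climbs with length, and most factor genes lie on or below it; points outside the axes are not drawn.

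Other genes of the translation pathway were read from lists chosen by name. Beside their counts, 19.8% of all 13363 genes compared were past 2-fold, 10.8% higher and 8.95% lower, and 49.8% lay below 0. Termination and recycling factors had 0 of 8 compared genes past 2-fold and a median log2 ratio of -0.39. The stop codon-reading factor gene Etf1 was 1.15-fold higher (1.08 to 1.22), the highest of them, although its log2 ratio of 0.20 was -0.17 when adjusted for length and GC, and Mcts2, a retrocopy of Mcts1, was the lowest at 1.56-fold lower (1.14 to 2.16). Poly(A)-binding proteins and their partners had 1 of 9 higher and 0 lower, and their median log2 ratio was -0.09. The one that was higher, Pabpc1l, had 48 counts in the library labelled P2x7-KO and 19 in the library labelled wild type, 2.41-fold higher (1.39 to 4.35), while Pabpc1, the main form, stood at 3226 and 3439 CPM in that order. Hypusine and diphthamide synthesis genes, whose products modify eIF5A and eEF2, had 0 of 9 past 2-fold. All 9 lay below 0 (49.8% of all genes), with a median of -0.65. In that list Dph2 was 1.84-fold lower (1.56 to 2.18), the lowest, and Dph6 was nearest to equality, at 21.6 CPM in the library labelled P2x7-KO and 23.02 CPM in the library labelled wild type. Adjusted for length and GC, all 9 were still below 0, with a median of -0.36.

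The mTOR and MNK signalling genes had 0 of 12 past 2-fold (19.8% of all genes) and a median of 0.09. These genes had 6 intervals above equality (35.6% of all genes) and 3 below (34.7% of all genes). Their median was -0.01 when adjusted for length and GC, with 6 of 12 below 0. The eIF4A inhibitor gene Pdcd4 was the highest, at 298 CPM in the library labelled P2x7-KO and 205 CPM in the library labelled wild type, 1.45-fold higher (1.38 to 1.53). Rps6kb2, an S6 kinase gene, was the lowest, with 42 and 61 counts in that order. Mitochondrial translation factors had 0 of 10 past 2-fold and a median of -0.21, with Tufm, the mitochondrial elongation factor Tu gene, the lowest at 1.86-fold lower (1.64 to 2.10) and Mtrf1 the highest at 1.66-fold higher (1.30 to 2.14). The remaining cytosolic factors had 0 of 9 past 2-fold and a median of -0.22, from Eefsec, the selenocysteine elongation factor gene, at 1.62-fold lower (1.47 to 1.79), to the helicase gene Ddx3x at 1.66-fold higher (1.60 to 1.73). When adjusted for length and GC, that median was 0.0016 and the log2 ratio of Ddx3x was 0.15, against 0.73 without adjustment. The last list was the 9 members known for a terminal oligopyrimidine tract, a sequence at the cap through which mTOR controls translation. Of these, 1 was at least 2-fold lower (8.95% of all genes). It was Eef1g, which was not called with total count scaling, DESeq2 size factors or adjustment for length and GC. The median of the 9 was -0.24, nearer to 0 than the -0.37 of all members.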

How the data were processed

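RNA from 2 libraries was measured by Illumina sequencing. The authors deposited whole-number counts, not normalized, for 46095 genes in 1 table. Per the submitters' processing notes, HISAT2 2.0.4 and mm10 were used. For the counting program, annotation, strand setting and multiply matching reads, nothing is given in the sources used here. In GENCODE M21, 16 members overlap a protein-coding gene on either strand.

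Counts were scaled by TMM (edgeR 4.0.16, R 4.3.3) over all genes. Ratios carry exact 95% Clopper-Pearson intervals and CPM values exact Poisson intervals (scipy 1.17.1), which cover counting error only, since reads are not independent molecules. A gene with at least 20 counts over both libraries was compared, with 0.5 added to each count before log2, and called when it was at least 2-fold apart with an interval that excluded 1. A floor of 3 counts equals 0.236 CPM in the library labelled P2x7-KO and 0.247 CPM in the library labelled wild type. For a count of 0 the exact 95% Poisson interval reaches 0.290 and 0.303 CPM in that order. Pair ratios have exact conditional intervals, or a normal approximation where Eef1a1 or Eef2 is in the pair. Lengths, GC content and coordinates came from GENCODE M21 (all 63 members matched): the APPRIS principal transcript among those mapped to RefSeq mRNA entries, else the one of middle length, else the longest. Log2 ratios were adjusted by a loess fit (span 0.3) over 12374 genes, for length alone and for length with GC content. The interval and call were tested on simulated data.

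Members and lists were chosen with earlier results of these data known, and the gene pairs after the values were seen. Genes given in full were each called member, the most abundant per kilobase and the highest and lowest of each role group, the eIF2 kinases and the eIF4E-binding proteins; others are further members of those groups.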

Additional observations from a re-analysis of the deposited data

Results flagged for a closer look

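One pseudogene row outside the family carried signal above the library labelled wild type. Of the 12 rows of the same name pattern that are not typed as mRNA, 4 had at least 20 counts. Among these the pseudogene row Eef1a1-ps1 had 496 counts in the library labelled P2x7-KO and 363 in the library labelled wild type, 1.31-fold higher (1.14 to 1.499). The direction differs from that of Eef1a1 itself, at 152575 and 161328 counts in that order. Other pseudogene rows went the opposite way: Eif1-ps1 had 17 counts in the library labelled P2x7-KO and 39 in the library labelled wild type, 2.402-fold lower (1.33 to 4.53), and Eif4a-ps4 had 1734 and 2004 counts in that order. Eif3s6-ps2 had 22 and 21 counts in that order. The part of reads with several matches in these values was not tested.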

How the results depend on the processing

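No paired analysis was possible because each group holds 1 library with no replicate number. The median log2 ratio of the members stayed below 0 under every alternative run, from -0.40 with upper quartile scaling to -0.25 with length and GC content adjusted. The count of members at least 2-fold higher was 1 under every scaling and count filter, and 2 after adjustment with the other transcript, where Eif2ak3 joined at a log2 ratio of 1.43. That value rests on an Eif2ak3 transcript of 927 bases, against 4513 bases for the one otherwise taken, which gave 0.58. The count at least 2-fold lower was 1 with total count scaling and 1 with DESeq2 size factors. At 1.5-fold the counts were 3 higher and 15 lower. After adjustment for length alone Eef2k (-1.02) and Eif5b (-1.30) were the 2 past 2-fold lower, and for length and GC content Eif1ax (-1.07), Eif3j1 (-1.15) and Eif5b (-1.46) were, so Eef1g and Eif4ebp3 are not called under either. Adjusted for length and GC content, Eef2k was -0.94 with its transcript of 6580 bases and -0.48 with the other transcript of 3047 bases. The log2 ratio of Eef2 turned to 0.041 with total count scaling and 0.0095 with DESeq2 size factors.

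Adjustment for length alone turned the log2 ratios of Eef1a1 (0.057), Eif3h (0.10), Eif3i (0.0069), Eif3m (0.20), Eif4b (-0.084) and Eif4g3 (-0.25), and the eIF4G scaffold median (-0.25), beside Eif2ak4 (-0.27) and Eif2d (0.03), whose unadjusted intervals included equality; 53 of 61 kept their sign. Adjusting for length together with GC content turned those of Eef2 (0.13), Eif3a (-0.090), Eif3h (0.064), Eif3i (0.012), Eif4b (-0.092), Eif4enif1 (-0.012), Eif4g3 (-0.14) and Eif5 (-0.26), and the eIF4G median (-0.14), beside Eif2ak4 (-0.21), Eif2d (0.05) and Eif3e (-0.0072) of the same kind; 50 kept their sign. With the other transcript, an alternative added after seeing the data that takes the one of middle length, the turned values were Eef2 (0.10), Eif3a (-0.13), Eif3h (0.012), Eif4b (-0.13), Eif4e (0.017), Eif4enif1 (-0.042), Eif4g3 (-0.17), Eif5 (-0.30), Eif2ak4 (-0.24), Eif2d (0.05), Eif3e (-0.04) and Eif3j2 (-0.02), where 49 kept their sign, with medians of 0.017 for the eIF4E family and -0.17 for eIF4G. Apart from the adjustment itself, the cause of these changes was not tested. Depth limits Eif5a2 most, at 99 and 27 counts in the libraries labelled P2x7-KO and wild type.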
